A study of Homo sapiens with 6 samples.

Results

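The histone lysine methyltransferases are the enzymes that add methyl groups to lysines of histones H3 and H4. A list of 32 such genes was drawn up by name, with earlier results of these data known. For 31 of them the arrays held a probe set annotated to that gene alone, and these 31 of the 18417 genes tested are described here. The remaining gene, ASH1L, was not analysed here. A gene with several probe sets is represented by its brightest one, judged by the mean of all 6 arrays. RNA came from WM164, a human melanoma cell line from a lymph node metastasis that carries a BRAF mutation, so every sample represents 1 line. All samples were grown in RPMI with fetal calf serum. In the Parent group, 3 samples received DMSO. In the other group, labelled IDTC for induced drug tolerant cells, 3 samples were kept for 16 days in 500 nM PLX4032, which is vemurafenib and blocks mutant BRAF, with fresh drug-containing medium every 3 days. The design text says that the cells were kept in triplicate and that RNA was prepared separately from every sample. Whether the cultures were independent experiments is not said, and p-values here reflect only how far these samples differed, which can include technical spread. The labels give no duration for DMSO, so time in culture and drug cannot be told apart.

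Most of these enzymes share a catalytic SET domain, which transfers a methyl group from S-adenosylmethionine, whereas DOT1L belongs to a different fold. What a methyl group does depends on the residue: H3K4 methylation marks promoters and enhancers, H3K36 and H3K79 methylation mark transcribed gene bodies, H3K9 methylation marks silent heterochromatin, and H4K20 methylation serves chromatin compaction and the licensing of replication. Enzymes of one residue also differ in how many methyl groups they add and in where they are recruited. In melanoma, SETDB1 is known as an amplified gene that speeds tumour growth in animal models. An array of this kind measures RNA, not the enzymes or the marks.

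Values are log2 expression as deposited, and a change is the IDTC mean minus the Parent mean, with its standard error from limma. A gene was said to rise or fall when its limma p, adjusted by the Benjamini-Hochberg method over all 18417 genes, was under 0.05. Levels of different genes were not compared, because probe sets differ in brightness. In bulk RNA, fewer cells that express a gene and less RNA per cell cannot be told apart. The array medians lay between 6.25 and 6.36 and their interquartile ranges between 3.31 and 3.60. IDTC 3 had the highest median and the narrowest range. Of 9 measured melanocytic markers 6 rose, 1 fell and 2 were not called, and their mean level was 9.78 to 9.81 on the Parent and 10.57 to 10.69 on the IDTC arrays. The corresponding means of the endothelial markers were 5.07 to 5.19 and 5.05 to 5.14, and those of the keratinocyte markers 5.53 to 5.74 and 5.62 to 5.79. Fibroblast markers averaged 6.26 to 6.32 and 6.11 to 6.15, where 2 of 6 fell (LUM by 0.89 ± 0.14 and PDGFRA by 0.28 ± 0.06) and 4 were not called. Immune markers averaged 5.11 to 5.15 and 4.56 to 4.69. Of these 5, LYZ fell by 3.03 ± 0.09, MS4A1 rose by 0.37 ± 0.12 and 3 were not called, and the median change was 0.04. The part of these markers in the results below was not tested.

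The methyltransferase genes split almost evenly. In the drug-tolerant cells 12 of 31 rose, 11 fell and 8 were not called, with a median change of -0.08, against a median of -0.01 over all genes. Over the genes outside the dimmest 40% the median was -0.07, near that of the list. The share called, 74.2%, stands beside 46.6% of all genes tested and beside 65% of the genes outside the dimmest 40%. None of the 31 was among those dimmest genes. In each direction, 21.7% of all genes rose and 24.9% fell. With the dimmest 40% left out of the test, 3276 of 11051 genes rose and 4371 fell, and of the members 12 rose and 12 fell. Groups did not overlap for 25 of the 31 genes, against 54.1% of all genes. Changes of 2-fold or more were found for 3 genes, DOT1L, SUV39H2 and SETDB2, which is 9.68% of the list beside 9.21% of all genes tested. Another 9 called genes changed by 0.5 to 1 log2, and 11 by less than 0.5. The median size of a change, whatever its sign, was 0.42 in the list and 0.21 over all genes. The all-gene figures for overlap, 2-fold change and median size include the dimmest 40%, where no member lies. On 24 of the 31 genes the lowest of the IDTC values was that of IDTC 3, which held the lowest value for 42.7% of all genes. Parent 2 held the lowest Parent value on 16 of the 31, beside 33.8% of all genes. Both all-gene shares also include the dimmest 40%. Of the 23 calls, 20 kept their direction and stayed called under each of the 14 alternatives, including the 6 that left out 1 array. The other 3 (SETD7, EHMT2 and NSD1) are described with their genes.

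**Figure D1:**
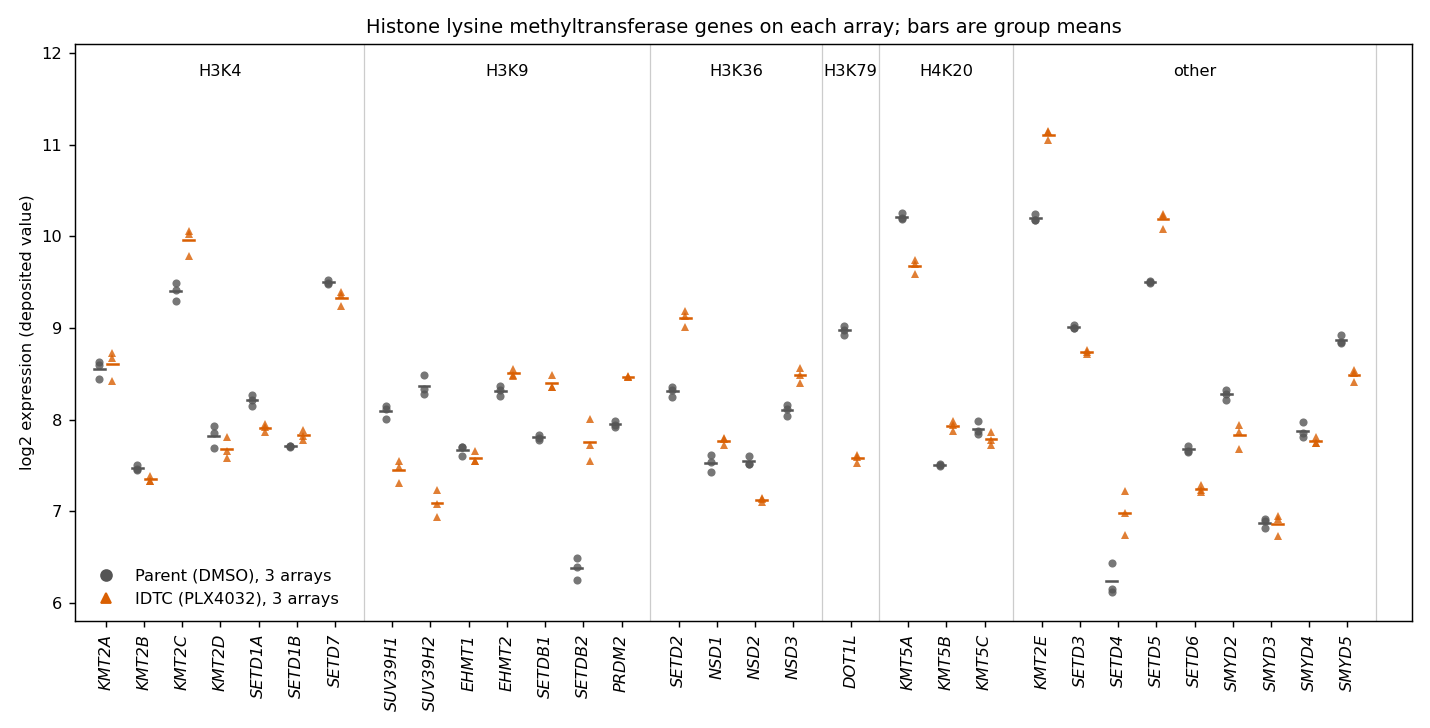
Log2 expression (vertical axis, deposited values) of the 31 methyltransferase genes on each of the 6 arrays, ordered by target residue, with grey circles for Parent, orange triangles for IDTC and bars for group means. The groups do not overlap for 25 genes, and the widest gaps are those of DOT1L, SUV39H2 and SETDB2.

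The H3K9 methyltransferases spanned the widest range of change of any residue. Of 7 genes, SETDB1, SETDB2, PRDM2 and EHMT2 rose, SUV39H1 and SUV39H2 fell, and EHMT1 was not called. Calls thus covered 85.7%, beside 46.6% of all genes and 65% of genes outside the dimmest 40%. Changes ran from -1.28 to 1.38, with a median of 0.19. SUV39H1 and SUV39H2, the paralogous enzymes that trimethylate H3K9 in pericentromeric heterochromatin, were both lower in IDTC. SUV39H2 read 8.49, 8.34 and 8.28 on Parent arrays 1 to 3 and 7.24, 7.08 and 6.94 on IDTC arrays 1 to 3. All IDTC values lay more than 1 log2 below the lowest Parent value, and the gene fell by 1.28 ± 0.09 (2.43-fold, n = 3 per group, limma adjusted p = 2.25e-05). SUV39H1 read 8.15, 8.01 and 8.11 in Parent and 7.48, 7.55 and 7.31 in IDTC. It fell by 0.64 ± 0.08 (1.56-fold, limma adjusted p = 3.18e-04), and the groups did not overlap.

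The SETDB enzymes, which methylate H3K9 at sites chosen by partner proteins, moved the other way. SETDB2 read 6.49, 6.40 and 6.25 in Parent and 8.00, 7.72 and 7.54 in IDTC. Its rise of 1.38 ± 0.12 (2.60-fold, limma adjusted p = 6.33e-05) lay at the 98.2nd percentile of the changes of all genes, and its IDTC values spread more widely (SD 0.23) than those of any other member but SETD4. SETDB1, which is recruited by TRIM28 to silence retroelements, read 7.83, 7.78 and 7.81 in Parent and 8.49, 8.36 and 8.36 in IDTC. It rose by 0.60 ± 0.06 (1.51-fold, limma adjusted p = 1.09e-04), with every IDTC array above every Parent array. PRDM2, also known as RIZ, read 7.94, 7.92 and 7.98 in Parent and 8.48, 8.47 and 8.46 in IDTC. The rise was 0.52 ± 0.05 (1.43-fold, limma adjusted p = 9.28e-05), and the IDTC values were the tightest of any member (SD 0.0071).

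EHMT1 and EHMT2 encode GLP and G9a, which form a heterodimer that dimethylates H3K9 in euchromatin. EHMT2 read 8.37, 8.26 and 8.32 in Parent and 8.48, 8.49 and 8.55 in IDTC, a rise of 0.19 ± 0.06 (limma adjusted p = 0.026). That call was lost without Parent 2, Parent 3, IDTC 2 or IDTC 3 and after re-centring the arrays on their medians, with adjusted p-values up to 0.096 over the alternatives. EHMT2 has 2 probe sets, and they hold identical values on every array, so they are not 2 measurements. EHMT1 read 7.61, 7.70 and 7.70 in Parent and 7.66, 7.55 and 7.55 in IDTC, a difference of -0.08 with a 95% interval of -0.22 to 0.06, and the groups overlapped.

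**Figure D2:**
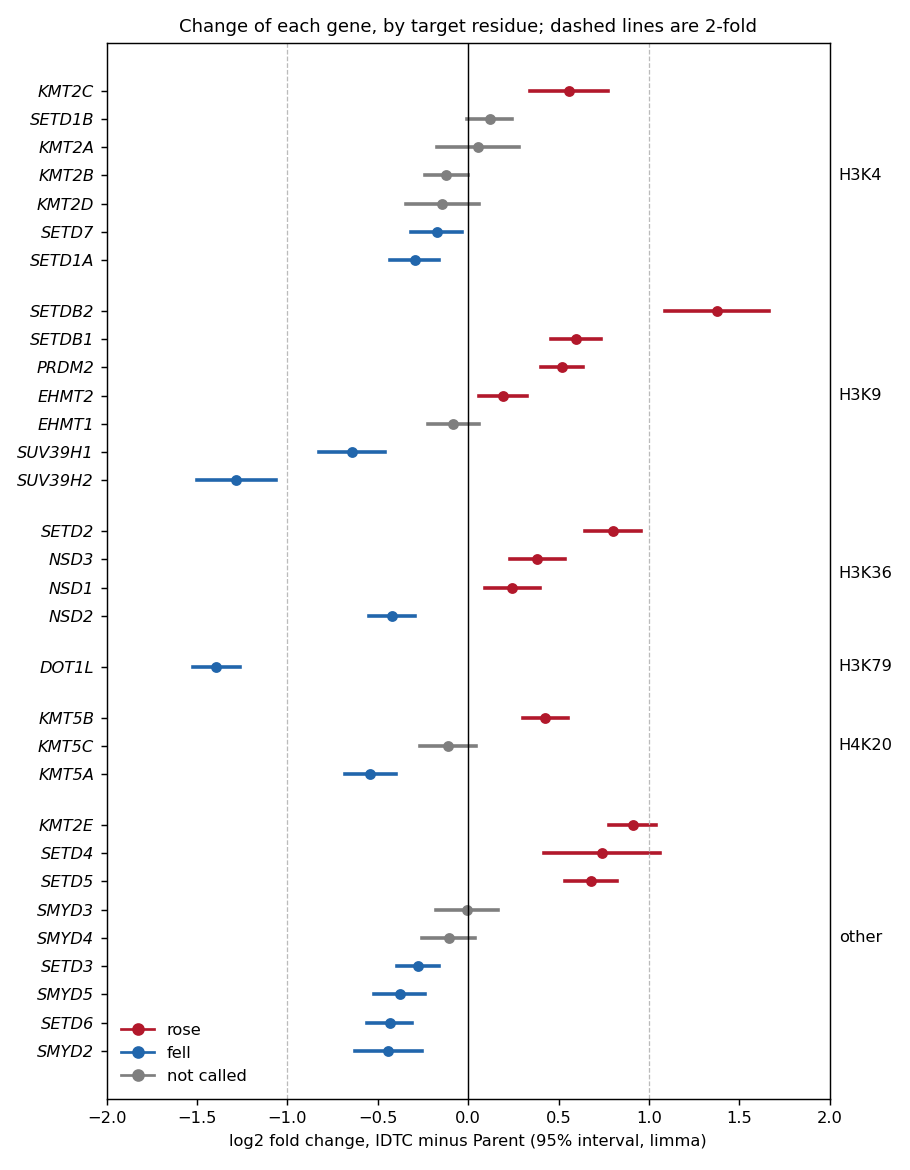
Log2 fold change (horizontal axis, IDTC minus Parent) of each gene with its 95% interval from limma, grouped by target residue, in red for genes that rose, blue for those that fell and grey for those not called. H3K9 genes span the range from -1.28 (SUV39H2) to 1.38 (SETDB2), and DOT1L stands at -1.39.

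DOT1L, the H3K79 methyltransferase and the gene here whose product has no SET domain, was among the 3 members that changed by 2-fold or more. It read 8.93, 8.97 and 9.02 in Parent and 7.60, 7.61 and 7.53 in IDTC. The gene fell by 1.39 ± 0.05 (2.63-fold, limma adjusted p = 1.55e-06), which placed it at the 2.30th percentile of the changes of all genes, and its groups lay far apart. Under the 14 alternatives its change stayed between -1.42 and -1.32.

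DOT1L works with the AF9, ENL and AF10 proteins, encoded by MLLT3, MLLT1 and MLLT10, and with AFF scaffolds of elongation complexes. The list of 9 DOT1L and elongation partner genes also holds MLLT6, SKP1 and TRRAP. Of these 9 genes 2 rose and 7 were not called, with a median change of 0.14. The 22.2% that rose stands beside the 21.7% of all genes that rose, a share that includes the dimmest 40%, where none of the 9 lies. With those dimmest genes left out of the test, 3276 of 11051 genes rose. None of the 9 fell, so the share called in either direction was also 22.2%. That lay below the 46.6% of all genes and the 65% of genes outside the dimmest 40%. MLLT10 rose by 0.72 ± 0.08 (limma adjusted p = 2.08e-04) and AFF3 by 0.63 ± 0.07 (limma adjusted p = 2.22e-04). MLLT10 read 7.96, 7.74 and 7.78 in Parent and 8.62, 8.56 and 8.45 in IDTC. The number that rose was 4 without IDTC 3 or after quantile normalization, and 5 when arrays were scaled on the named genes.

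Among the H3K36 methyltransferases 3 of 4 rose and 1 fell, with a median change of 0.31. All 4 were thus called, beside 46.6% of all genes and 65% of genes outside the dimmest 40%. SETD2, the enzyme responsible for nearly all H3K36 trimethylation, travels with elongating RNA polymerase II. It read 8.33, 8.25 and 8.36 in Parent and 9.13, 9.18 and 9.02 in IDTC, and it rose by 0.80 ± 0.07 (1.74-fold, limma adjusted p = 4.28e-05). The NSD family, which adds the first methyl groups to H3K36, split. NSD2, the family member altered in multiple myeloma, read 7.52, 7.52 and 7.61 in Parent and 7.13, 7.14 and 7.10 in IDTC, and it fell by 0.42 ± 0.05 (1.34-fold, limma adjusted p = 4.17e-04). NSD3 rose from 8.16, 8.04 and 8.12 to 8.49, 8.56 and 8.40, by 0.38 ± 0.06 (limma adjusted p = 0.0019). NSD1, whose loss causes an overgrowth syndrome, rose by 0.24 ± 0.07 (limma adjusted p = 0.018), from 7.62, 7.43 and 7.54 to 7.78, 7.80 and 7.72. The call of NSD1 was lost after re-centring the arrays on their medians and without Parent 2, Parent 3, IDTC 1 or IDTC 2, with adjusted p-values up to 0.062.

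Of the H3K4 methyltransferases 1 of 7 rose and 2 fell, with a median change of -0.12. The share called, 42.9%, was near the 46.6% of all genes but below the 65% of genes outside the dimmest 40%. KMT2C, which with KMT2D monomethylates H3K4 at enhancers, read 9.50, 9.29 and 9.41 in Parent and 10.03, 10.06 and 9.79 in IDTC. It rose by 0.56 ± 0.09 (1.47-fold, limma adjusted p = 0.0016) and was the only H3K4 gene with a change above 0.5. SETD1A, the catalytic subunit of a complex that trimethylates H3K4 at promoters, fell by 0.30 ± 0.06 (limma adjusted p = 0.0041), from 8.14, 8.22 and 8.27 to 7.96, 7.87 and 7.92. SETD7, a monomethylase of H3K4 and of many other proteins, was called at the edge of the threshold (change -0.17 ± 0.06, limma adjusted p = 0.048). Its values were 9.48, 9.49 and 9.53 in Parent and 9.36, 9.39 and 9.24 in IDTC, and the groups did not overlap. The call was lost under 11 of 14 alternatives, namely without any 1 of the 6 arrays, with the replicate block and under all 4 other scalings, with adjusted p-values up to 0.46. Its change was -0.08 after quantile normalization and -0.05 after the same over the named genes.

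The other 4 H3K4 genes had no call. KMT2A, the target of translocations in leukaemia, differed by 0.05 with a 95% interval of -0.17 to 0.28. Its sign turned without Parent 2 or IDTC 2 (-0.0021 and -0.0085). A second, dimmer probe set of KMT2A differed by 0.13 and was not called. KMT2D differed by -0.14, with an interval of -0.35 to 0.06, and its groups overlapped. KMT2B (-0.12 ± 0.05, limma adjusted p = 0.089) and SETD1B (0.12 ± 0.05, limma adjusted p = 0.11) had groups that did not overlap. KMT2B was called when the dimmest 40% of genes were left out (adjusted p = 0.045). SETD1B was called after quantile normalization over all probe sets (adjusted p = 0.040) and when the arrays were re-centred or quantile normalized over the named genes.

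Of 3 H4K20 methyltransferases 1 rose, 1 fell and 1 was not called. Their share called, 66.7%, was near the 65% of genes outside the dimmest 40% and above the 46.6% of all genes. KMT5A, the monomethylase whose protein is destroyed during S phase, read 10.20, 10.20 and 10.25 in Parent and 9.74, 9.70 and 9.59 in IDTC. It fell by 0.54 ± 0.06 (1.46-fold, limma adjusted p = 2.07e-04). KMT5A has near-identical copies in the genome and 3 probe sets on the array. All were lower in IDTC, by values of -0.54, -0.50 and -0.17, of which the last was not called, so which copy each value belongs to is uncertain. KMT5B, which adds the further methyl groups, read 7.51, 7.50 and 7.52 in Parent and 7.94, 7.98 and 7.88 in IDTC, and it rose by 0.43 ± 0.05 (1.34-fold, limma adjusted p = 3.85e-04). KMT5C, its paralogue, differed by -0.11 with a 95% interval of -0.26 to 0.04, and its groups overlapped.

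Another or an unsettled histone substrate marks 9 members, of which 3 rose and 4 fell, with a median change of -0.11. Calls covered 77.8% of them, beside 46.6% of all genes and 65% of genes outside the dimmest 40%. KMT2E, a KMT2 relative for which no firm methyltransferase activity is known, read 10.25, 10.18 and 10.18 in Parent and 11.14, 11.15 and 11.05 in IDTC. It rose by 0.91 ± 0.06 (1.88-fold, limma adjusted p = 9.94e-06). SETD4 rose from 6.44, 6.16 and 6.12 to 7.22, 6.98 and 6.74, by 0.74 ± 0.14 (1.67-fold, limma adjusted p = 0.0030), with the largest standard error of the list. SETD5, a gene linked to intellectual disability, rose from 9.51, 9.49 and 9.52 to 10.22, 10.25 and 10.09, by 0.68 ± 0.06 (1.60-fold, limma adjusted p = 6.89e-05). In all 3 genes every IDTC value was above every Parent value.

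The 4 of these 9 that fell changed by less. SMYD2, which methylates p53 as well as histones, fell by 0.44 ± 0.08 (limma adjusted p = 0.0025), from 8.33, 8.28 and 8.22 to 7.94, 7.87 and 7.68. SETD6, which methylates the NF-kB subunit RELA, fell by 0.43 ± 0.05 (limma adjusted p = 3.27e-04), from 7.72, 7.65 and 7.66 to 7.28, 7.21 and 7.23. SMYD5 fell by 0.38 ± 0.06 (limma adjusted p = 0.0013). SETD3, an actin histidine methyltransferase, fell by 0.28 ± 0.05 (limma adjusted p = 0.0024). None of these 4 had overlapping groups. SMYD4 differed by -0.11, with an interval of -0.25 to 0.04. SMYD3 differed by -0.01, with an interval of -0.18 to 0.17, and its sign turned under 5 of the 14 alternatives.

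**Figure D3:**
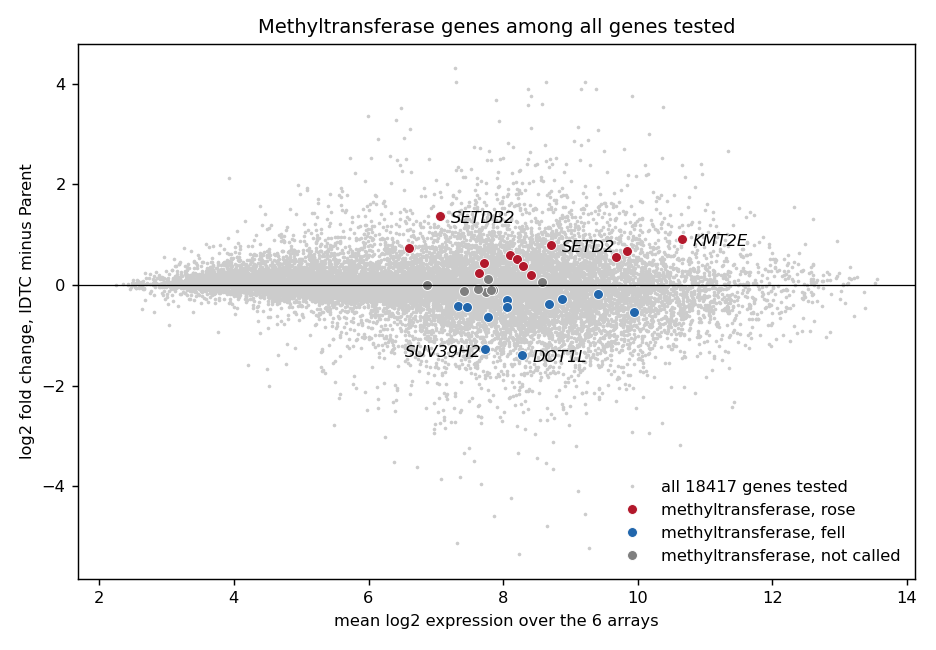
Log2 fold change (vertical axis) against mean log2 expression over the 6 arrays (horizontal axis) for all 18417 genes in light grey, with methyltransferase genes in red (rose), blue (fell) or dark grey (not called). DOT1L, SUV39H2 and SETDB2 stand at -1.39, -1.28 and 1.38, and all members lie outside the dimmest 40% of genes.

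Paralogues were compared within each array, which removes a constant offset of the array but not a difference in spread. For 10 pairs, the difference between the log2 values of the 2 genes was compared between Parent and IDTC. A 2-sided exact permutation test over 3 against 3 arrays cannot give a p under 0.1, so no pair could pass. In 9 of 10 pairs the groups did not overlap, at exact p = 0.1 (0.11 after adjustment over the 10 pairs). Groups did not overlap for 54.1% of all single genes, and no such share was computed over other gene pairs. The NSD pairs share genes, so they are not separate observations. Standard errors of the pairs come from the spread of the 3 arrays in each group, not from limma. NSD2 moved by -0.81 ± 0.05 relative to NSD3. SETDB1 moved by -0.78 ± 0.11 relative to SETDB2, although both rose. KMT2C moved by 0.70 ± 0.05 relative to KMT2D, NSD1 by 0.67 ± 0.06 relative to NSD2, and SUV39H1 by 0.64 ± 0.09 relative to SUV39H2.

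The relative changes were also measured for KMT5B against KMT5C (0.54 ± 0.08), SETD1A against SETD1B (-0.41 ± 0.05) and EHMT1 against EHMT2 (-0.27 ± 0.08). NSD1 and NSD3, which both rose, differed in change by -0.14 ± 0.03, and by -0.18 after quantile normalization. KMT2A and KMT2B were the pair whose groups overlapped (0.18 ± 0.13, exact permutation p = 0.3). Both genes were called in 1 direction in the SUV39H pair, the SETDB pair and NSD1 with NSD3, and NSD2 was called lower while its paralogues were called higher.

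**Figure D4:**
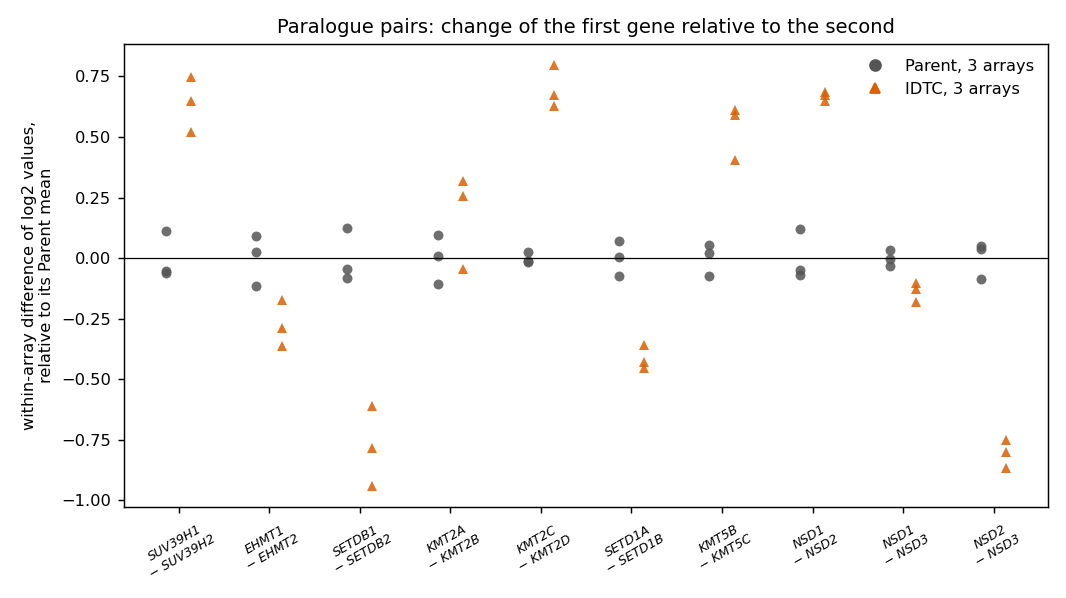
Within-array difference of the log2 values of 2 paralogues (vertical axis, relative to the Parent mean of that difference) for the 10 pairs on the horizontal axis, with grey circles for Parent arrays and orange triangles for IDTC arrays. The groups overlap for KMT2A against KMT2B alone, and the means of NSD2 against NSD3 and of SETDB1 against SETDB2 lie at -0.81 and -0.78.

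Promoter sequences of members that moved were set out to show what the upstream regions of genes with opposite changes look like. RefSeq promoters (GRCh38.p14) were found for 28 of the 31 genes, at 40 start sites on the assembled chromosomes, and the 250 bases before each start were read. DOT1L, NSD3 and SETD1B had no entry, so the motif counts leave out DOT1L, which fell by 1.39. Shown here, all from the plus strand, are SUV39H2 (chr10:14878616-14878865), which fell, SETDB2 (chr13:49444024-49444273), which rose, and NSD2 (chr4:1871143-1871392), which fell against the other NSD genes. Each has 1 start site in the table, and capitals mark matches to the motifs named after them.
SUV39H2: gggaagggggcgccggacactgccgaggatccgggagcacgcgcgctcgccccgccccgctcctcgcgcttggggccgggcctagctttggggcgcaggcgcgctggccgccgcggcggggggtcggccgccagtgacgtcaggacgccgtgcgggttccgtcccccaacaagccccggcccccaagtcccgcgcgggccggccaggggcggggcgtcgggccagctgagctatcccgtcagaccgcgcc
SETDB2: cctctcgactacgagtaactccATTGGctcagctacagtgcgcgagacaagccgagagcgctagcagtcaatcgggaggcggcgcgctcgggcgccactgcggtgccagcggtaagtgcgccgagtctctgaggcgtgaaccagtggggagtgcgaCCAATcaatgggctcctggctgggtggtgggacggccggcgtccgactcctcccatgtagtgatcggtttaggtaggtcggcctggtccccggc
NSD2: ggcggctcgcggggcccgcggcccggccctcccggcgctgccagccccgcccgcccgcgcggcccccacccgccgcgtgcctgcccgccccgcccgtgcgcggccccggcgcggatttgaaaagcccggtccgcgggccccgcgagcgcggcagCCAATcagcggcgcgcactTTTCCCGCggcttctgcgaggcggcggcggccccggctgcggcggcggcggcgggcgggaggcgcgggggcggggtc

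The motifs searched, on both strands, were the E2F sites TTTCCCGC and TTTGGCGC, the E-box CACGTG, the ETS core CCGGAAG and the CCAAT box CCAAT, and no matches overlapped each other in the member promoters. An E2F site of either form was found in 1 of 40 member promoters, that of NSD2, where TTTCCCGC begins 77 bases before the start, and in 1.93% of all 35116 promoters. The SUV39H2 window held no match to any of the 5 motifs, and that of SETDB2 held 2 CCAAT boxes, one on each strand. The E-box was found in 7 of 40 member promoters (17.5%) and in 6.35% of all promoters. These 7 belonged to KMT2D, EHMT2, SETDB1 (at both of its overlapping windows), NSD1, SETD6 and SMYD4, which include genes that rose, fell and were not called. ETS cores occurred in 4 of 40 (10%, against 8.52%) and CCAAT boxes in 14 of 40 (35%, against 32.0%). The median GC content was 72% in the member promoters and 58% in all promoters. Windows of alternative starts of one gene were counted separately. A match describes letters in these windows and shows no binding.

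The genes that work with these enzymes were examined from 6 lists written by function. The share called was 80% for the COMPASS and MLL list, 72.7% for the H4K20 list and 22.2% for the DOT1L list described above. It was 66.7% for the H3K9 list, 63.6% for the H3K36 list and 66.7% for the methyl donor list. These stand beside 46.6% of all genes and 65% of genes outside the dimmest 40%, and those of the H3K9, H3K36 and methyl donor lists lie near the latter. COMPASS and MLL complexes are the assemblies in which the KMT2 and SETD1 enzymes methylate H3K4. Among 15 partner genes, 5 were called higher and 7 lower, and the median change was -0.13. Lower calls numbered, for example, 5 without Parent 3 or after quantile normalization over the named genes. They numbered 8 when all probe sets of a gene were averaged, and higher calls stayed at 5 in these settings. WDR5, the core subunit that holds the catalytic module together, read 8.84, 8.84 and 8.92 in Parent and 7.79, 7.76 and 7.81 in IDTC, and it fell by 1.08 ± 0.05 (2.12-fold, limma adjusted p = 3.73e-06). The core subunit genes did not move as one, since ASH2L rose by 0.59 ± 0.05 (limma adjusted p = 8.03e-05), DPY30 fell by 0.48 ± 0.06 and RBBP5 was not called (-0.01 ± 0.06). PAXIP1, a subunit of the complexes of KMT2C and KMT2D, fell by 0.89 ± 0.06 (limma adjusted p = 1.39e-05), whereas KMT2C itself rose. HCFC1, a subunit of the SETD1 and KMT2A complexes, fell by 0.62 ± 0.06 (limma adjusted p = 1.17e-04).

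Partners and readers of H3K9 methylation numbered 12, of which 5 rose and 3 fell, with a median change of 0.08. ATF7IP, which stabilises SETDB1 protein, rose by 0.50 ± 0.08 (limma adjusted p = 0.0013) alongside SETDB1, and its relative ATF7IP2 rose by 0.89 ± 0.19 (limma adjusted p = 0.0060). ATF7IP2 was dim, with 4.53, 4.52 and 3.80 in Parent and 5.22, 5.20 and 5.12 in IDTC. MPHOSPH8, a subunit of the HUSH silencing complex that reads H3K9 methylation, rose by 0.58 ± 0.06 (limma adjusted p = 1.01e-04). TRIM28, the corepressor that recruits SETDB1, fell by 0.78 ± 0.09 (limma adjusted p = 1.92e-04), from 9.76, 10.05 and 10.04 to 9.15, 9.19 and 9.17.

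Partners and readers of H3K36 methylation numbered 11, of which 2 rose and 5 fell, with a median change of -0.07. MSH6, the mismatch repair subunit whose PWWP domain reads H3K36 trimethylation, fell by 1.02 ± 0.06 (2.02-fold, limma adjusted p = 1.21e-05). PHF19, a polycomb-associated reader, fell by 0.84 ± 0.05 (limma adjusted p = 8.37e-06), the splicing factor gene HNRNPL by 0.39 ± 0.05 (limma adjusted p = 7.30e-04), and the reader gene ZMYND11 rose by 0.41 ± 0.07 (limma adjusted p = 0.0022). The counts of this list depended on single arrays. The number that fell was 3 without Parent 1, Parent 2, Parent 3 or IDTC 2, and the number that rose was 1 without Parent 2 or IDTC 2. Re-centring the arrays on their medians gave 1 and 3.

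The list of H4K20 methylation turnover and readers held the single largest change of the 6 lists. It had 6 lower and 2 higher calls among 11 genes, and its median change was -0.30. ORC1, the origin recognition subunit that reads H4K20 dimethylation, read 8.97, 8.94 and 9.03 in Parent and 6.29, 6.32 and 6.46 in IDTC, and it fell by 2.62 ± 0.06 (6.15-fold, limma adjusted p = 3.06e-07). PCNA, on which KMT5A protein is marked for destruction, fell by 1.78 ± 0.06 (3.43-fold, limma adjusted p = 1.17e-06). DTL, the adaptor of the ubiquitin ligase that destroys KMT5A, fell by 1.73 ± 0.08 (3.33-fold, limma adjusted p = 2.42e-06), and SKP2 fell by 1.13 ± 0.05 (limma adjusted p = 2.73e-06). ORC1, PCNA and DTL are also genes of DNA replication, and the list cannot separate that role from the H4K20 one. Rises numbered 1 without Parent 2, Parent 3, IDTC 1 or IDTC 2 and after re-centring on array medians.

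S-adenosylmethionine, the methyl donor of all these enzymes, is made by MAT2A, and the product of the transfer is cleared by AHCY. Its supply and use were covered by 12 genes, with 6 lower and 2 higher calls and a median change of -0.21. MAT2A was not called (-0.06 ± 0.05, 95% interval -0.18 to 0.06). AHCY itself fell by 0.53 ± 0.06 (limma adjusted p = 2.52e-04). AHCYL2, a relative of AHCY, read 9.11, 9.09 and 9.18 in Parent and 10.69, 10.77 and 10.60 in IDTC, and it rose by 1.56 ± 0.06 (2.95-fold, limma adjusted p = 1.63e-06). AMD1, which diverts S-adenosylmethionine to polyamine synthesis, fell by 0.98 ± 0.06 (limma adjusted p = 1.51e-05). MTRR, which keeps methionine synthase active, fell by 0.62 ± 0.06 (limma adjusted p = 7.54e-05), and MTAP, of the methionine salvage pathway, by 0.61 ± 0.09 (limma adjusted p = 0.0011).

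**Figure D5:**
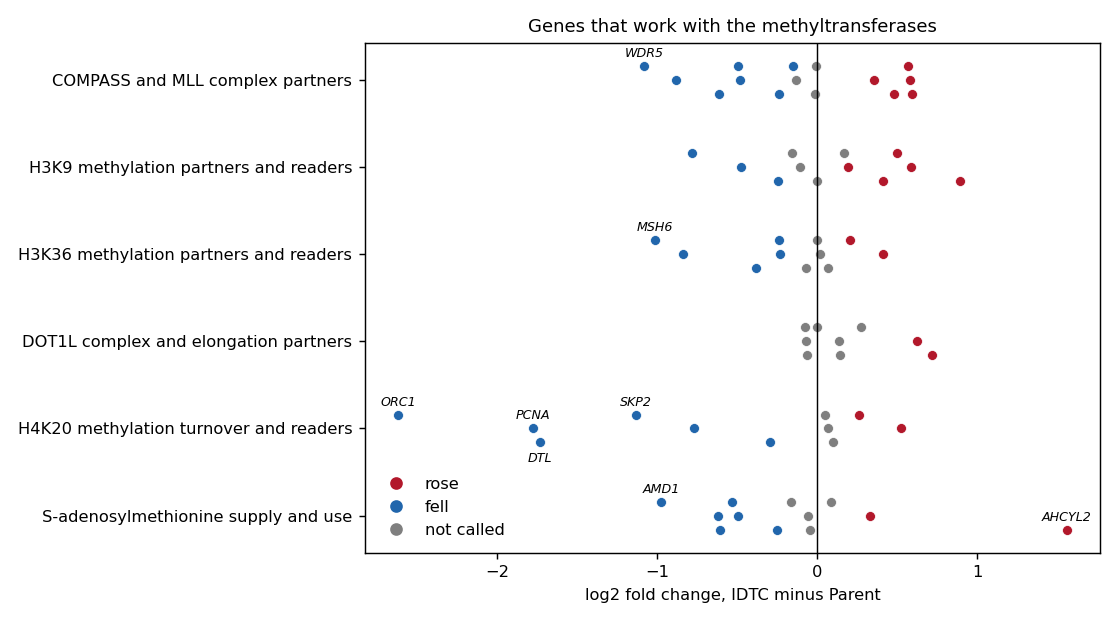
Log2 fold change (horizontal axis, IDTC minus Parent) of each gene in the 6 lists of partners, readers and methyl donor genes, in red for genes that rose, blue for those that fell and grey for those not called. ORC1 lies lowest at -2.62 and AHCYL2 highest at 1.56, and the genes of the DOT1L list lie between -0.08 and 0.72.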

How the data were processed

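RNA of 6 WM164 samples was hybridised to Affymetrix whole-transcript arrays. The deposited table holds log2 values for 33297 probe sets, already normalized by the authors. Per the submitters' processing notes, Affymetrix Expression Console, RMA and Partek 6.6 were used, with no roles given. The table has no detection calls, so background cannot be separated from low expression. No genome build is named in the sources used here.

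Platform annotation gave 1 symbol to 19460 probe sets, leaving 18417 genes. One limma model (version 3.58.1, R 4.3.3) with 2 group means was fitted over the 6 arrays without any covariate, with moderated 2-sided tests, and dim genes were kept. Sample titles gave the groups. The procedure was tested on simulated data. Members, lists and motifs were chosen with earlier results of these data known. All measured members are named, and up to 4 called genes per partner list with the largest change. DPY30, RBBP5, MAT2A and AHCY, named beyond this, were chosen after their values were seen. Alternatives covered scaling, probe sets, dim genes, the variance model, a replicate block and single arrays.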

Additional observations from a re-analysis of the deposited data

How the results depend on the processing

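Over 14 alternatives the members gave 10 to 13 higher and 10 to 12 lower calls, against 12 and 11. Their median change of -0.083 became -0.0197 when arrays were re-centred on the named genes and -0.0234 when quantile normalized over them, 2 settings chosen after seeing the data. Those settings gave 4846 higher and 4017 lower, and 4504 higher and 4403 lower, of all genes, against 3996 and 4592 as deposited. Re-centring over all probe sets gave 3665 and 4693.

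Parent and IDTC samples share replicate numbers, but their deviations correlated at 0.31, -0.19 and 0.26, so the numbers were not taken as a pairing. With the replicate block 12 members rose and 10 fell, with SETD7 lost and no other member's call changed, and 8855 genes were called in place of 8588. Signal over background is unknown, and 3 arrays per group limit the precision.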
